A study of Mus musculus with 26 samples.

Results

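Purified male germ cells were set against the whole organ they come from, in 6 RNA-seq libraries of the 26 deposited samples, which hold 23 distinct columns of counts. They were 2 libraries of pachytene spermatocytes labelled wild type, 2 of round spermatids labelled wild type and 2 of whole testis from wild-type mice. They were chosen by their labels and column headings and by no measured value. The testis mice were C57BL/6 at postnatal day 21. The titles of the sorted samples also say 21 days, but their other labels give neither an age nor a strain, and no label names a treatment or the method of sorting. The series as a whole deals with loss of Nkapl, with an Nkapl frameshift allele called TGdel and with loss of Sox30 in mouse testis. All libraries were made from total RNA with a strand-specific kit. Preparation and contrast coincide throughout: every sorted library was purified and every testis library was not, and the age of the mice behind the sorted libraries stands in their titles alone, so cell content, age, sorting and library preparation cannot be told apart.

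Spermatogenesis runs from spermatogonia, which divide by mitosis, through spermatocytes, which pair and recombine their chromosomes in a long meiotic prophase, to haploid spermatids. Round spermatids build the acrosome and the beginnings of the tail. In later spermatids histones are replaced by transition proteins and then by protamines, and the messengers for these proteins are made in round spermatids and stored before they are translated. Sertoli cells nurse the germ cells inside the tubule, peritubular myoid cells wrap it, and Leydig cells between the tubules make testosterone. In bulk RNA, fewer cells of a type and less RNA per cell cannot be told apart.

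The 6 libraries held 17799667 to 19569272 gene counts each. The second testis library, testis 2 here, is wild type by its column heading but lies in a file recorded for a TGdel sample, so results are also given without it. Replicates differed by more than sampling noise, with a chi-square of 2.45 per degree of freedom for spermatids, 4.85 for spermatocytes and 6.49 for testis. The design text speaks of biological replicates, but nothing says which animals the libraries came from, so p-values measure only the spread between these samples, which may be technical. Nkapl, the gene targeted in the series, stood at 101 and 96.6 counts per 1000000 (CPM) before scaling in the spermatocytes labelled wild type, at 78.2 and 80.5 in the spermatids labelled wild type, and at 100.7 and 105 in testis. In spermatids the knockout label went with a low level, 23.6 and 22.7 CPM. In spermatocytes it did not, since the libraries labelled Nkapl knockout had 132 and 131 CPM, above those labelled wild type. The spermatocyte genotype therefore rests on the label alone.

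Differences below are log2 values from edgeR's quasi-likelihood test with Benjamini-Hochberg adjustment over 16804 genes, and a gene was called at an adjusted p below 0.05. Levels are CPM scaled by TMM, a scaling factor that sets aside the most divergent genes. Nearly every gene passed the test: 85.3% were called between spermatocytes and testis, 40.6% of all tested genes as higher and 44.7% as lower. Between spermatids and testis 90.4% were called, 40.2% higher and 50.2% lower. For the mean of the sorted fractions 90.3% were called. Scaling set the balance: of the called genes 47.56% were higher in spermatocytes and 44.42% in spermatids, against 33.86% and 31.79% with no scaling factor, which lowered the median gene by 0.46 and 0.71 on the log2 scale. Upper-quartile scaling lowered it by 0.14 and 0.15, and DESeq2 raised it by 0.19 in spermatids. A call by itself therefore says little here, and list members are also read by size. A call of at least log2 1 upward was made for 23.5% of genes in spermatocytes and 28.9% in spermatids, and downward for 31.2% and 40.2%. At log2 3 or more the shares were 7.22% and 11.6% upward and 7.33% and 17% downward. The median gene lay at log2 -0.08 in spermatocytes and -0.33 in spermatids. Both comparisons use the same testis libraries, so their values are given side by side and not as 2 independent results.

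Sequences just upstream of the start site are shown for 5 genes of chromatin packaging and the sperm tail from the late spermatid list described further on. Prm1 and Prm2 encode protamines, Tnp1 and Tnp2 transition proteins, and Akap4 the main scaffold of the fibrous sheath of the tail. Each run is the 150 bases before the RefSeq start on build GRCm38.p6, 5′ to 3′ on the gene's strand. Capitals mark TGANNTCA, a relaxed form of the cAMP response element TGACGTCA, and TATA within 45 bases of the start.
Prm1 (chr16:10796824-10796973, minus strand): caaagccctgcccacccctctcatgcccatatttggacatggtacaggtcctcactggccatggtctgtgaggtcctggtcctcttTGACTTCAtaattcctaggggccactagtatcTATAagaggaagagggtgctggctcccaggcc
Prm2 (chr16:10792106-10792255, minus strand): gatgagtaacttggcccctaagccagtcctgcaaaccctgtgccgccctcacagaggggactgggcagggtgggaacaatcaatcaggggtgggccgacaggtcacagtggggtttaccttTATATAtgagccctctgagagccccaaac
Tnp1 (chr1:73015900-73016049, minus strand): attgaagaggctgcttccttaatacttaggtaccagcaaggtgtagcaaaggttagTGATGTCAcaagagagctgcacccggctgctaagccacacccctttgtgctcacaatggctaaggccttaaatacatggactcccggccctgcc
Tnp2 (chr16:10788656-10788805, minus strand): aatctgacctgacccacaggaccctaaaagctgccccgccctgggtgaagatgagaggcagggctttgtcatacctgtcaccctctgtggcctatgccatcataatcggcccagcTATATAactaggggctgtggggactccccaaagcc
Akap4 (chrX:7067365-7067514, plus strand): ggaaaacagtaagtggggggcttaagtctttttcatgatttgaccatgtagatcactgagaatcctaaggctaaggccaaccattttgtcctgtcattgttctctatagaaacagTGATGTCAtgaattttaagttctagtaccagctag

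TGANNTCA began 64 bases before the start in Prm1, 94 before it in Tnp1 and 35 before it in Akap4, and these letters were not in the windows shown for Prm2 and Tnp2. TATA began 32, 29 and 35 bases before the start in Prm1, Prm2 and Tnp2. Among the 34 listed transcripts of late spermatids, 28 matched a RefSeq promoter by symbol, and 16 of these (57.1%) held TGANNTCA in the 250 bases before the start. The motif, which reads the same on both strands, was in 10.5% of the 13042 tested genes that matched, and in 9 of 21 matched early round spermatid genes (42.9%). Among the somatic lists it was in 2 of 14 matched Sertoli genes (14.3%), in 0 of 13 stromal and 0 of 10 Leydig genes, in 1 of 8 endothelial (12.5%), 1 of 11 macrophage (9.09%), 1 of 5 red blood cell (20%) and 2 of 10 peritubular myoid genes (20%), and in 5 of 15 epididymal genes (33.3%). Of the 22 matched immediate early and stress genes 5 held it (22.7%). The exact TGACGTCA was in 0 of the 28 late spermatid windows and in 2.5% of those of tested genes. Its first 5 letters TGACG, or CGTCA for the other strand, were in 1 of the 28 (3.57%) and in 24.5% of tested genes. Over the lists their share ran from 0% in red blood cell and epididymal genes to 50% in immediate early and stress genes. It was 42.9% in early round spermatid and 41.2% in pachytene genes. TGACGTCA is 1 of the sequences that TGANNTCA covers. The relaxed form was chosen after the windows were read. A match describes the letters only.

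Transcripts of late spermatids were far higher in sorted cells than in whole testis. All 34 listed members were called higher by log2 1 or more in both comparisons, where 23.5% and 28.9% of all genes were. Of the 34, 30 were higher by log2 3 or more in spermatocytes and 31 in spermatids, where 7.22% and 11.6% of all genes were. The list's median was log2 4.69 in spermatocytes and 6.19 in spermatids, and its summed level was 3495 and 3201 CPM in testis, 15592 and 15891 in spermatocytes, and 34595 and 33791 in spermatids.

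Prm1 measured 0.433 and 0.296 CPM in testis, 334 and 355 in spermatocytes, and 1238 and 1173 in spermatids. All 4 sorted libraries lay above both testes, and both spermatid libraries above both spermatocyte libraries. The difference from testis was log2 9.86 in spermatocytes (SE 0.160, adjusted p = 3.03e-19) and 11.67 in spermatids (SE 0.159, adjusted p = 1.35e-20). SE here is the size of the difference divided by the square root of the test's F statistic, not a directly fitted standard error. Without testis 1 the differences were 10.15 and 11.95, and without testis 2 they were 9.63 and 11.43. Tnp1 followed the same order, with 1.56 and 1.02 CPM in testis, 343 and 346 in spermatocytes, and 1201 and 1121 in spermatids. Its differences were 8.06 and 9.81. Tnp2 was at 0.910 and 0.508 CPM in testis, 479 and 505 in spermatocytes, and 1737 and 1680.0 in spermatids. Prm2 was at 0.650 and 0.212 CPM in testis, 448 and 501 in spermatocytes, and 1744 and 1723 in spermatids, so its groups did not overlap either. Its difference was log2 10.09 in spermatocytes and 11.96 in spermatids. Without testis 1 these rose to 11.08 and 12.94. For the rises of these 4 genes, cell content, the age of the mice and the sorting cannot be told apart.

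Genes of the sperm tail on the list also lay above testis in all 4 sorted libraries. Akap4 measured 23.7 and 18.6 CPM in testis, 526 and 486 in spermatocytes, and 1428 and 1516 in spermatids. Akap3, a second anchor of the fibrous sheath, differed from testis by log2 3.60 in spermatocytes and 5.01 in spermatids. Odf2, of the outer dense fibres, measured 1122 and 1052 CPM in testis and differed by 1.51 and 2.22. Smaller differences belonged to Fhl4, with 1.51 and 1.95, and to Meig1, which is needed for assembly of the sperm head and tail, with 1.09 and 1.38. Spem1, which acts in shedding of the cytoplasm, had 2 reads in the testis libraries together. Its level over both libraries was 1298 times that of testis in spermatocytes (95% counting interval 359 to 10730) and 4162 times in spermatids (1152 to 34370).

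The libraries sorted as spermatocytes thus also held late spermatid transcripts, at a level between testis and spermatids. The median difference of spermatids from spermatocytes over the 34 members was log2 1.501, and the quartiles of the list were 1.39 and 1.64, against -0.86 and 0.67 for all tested genes. Piwil1, a piRNA-binding protein of pachytene spermatocytes, ran the other way: 899 and 810 CPM in spermatocytes, 66.5 and 67.8 in spermatids, 704 and 689 in testis. It was higher than testis in spermatocytes by log2 0.29 (SE 0.0804, adjusted p = 0.00224) and lower in spermatids by 3.37 (adjusted p = 1.08e-17), but with no scaling factor the spermatocyte value was -0.17. How far carry-over between the sorted fractions enters these levels was not tested.

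**Figure D1:**
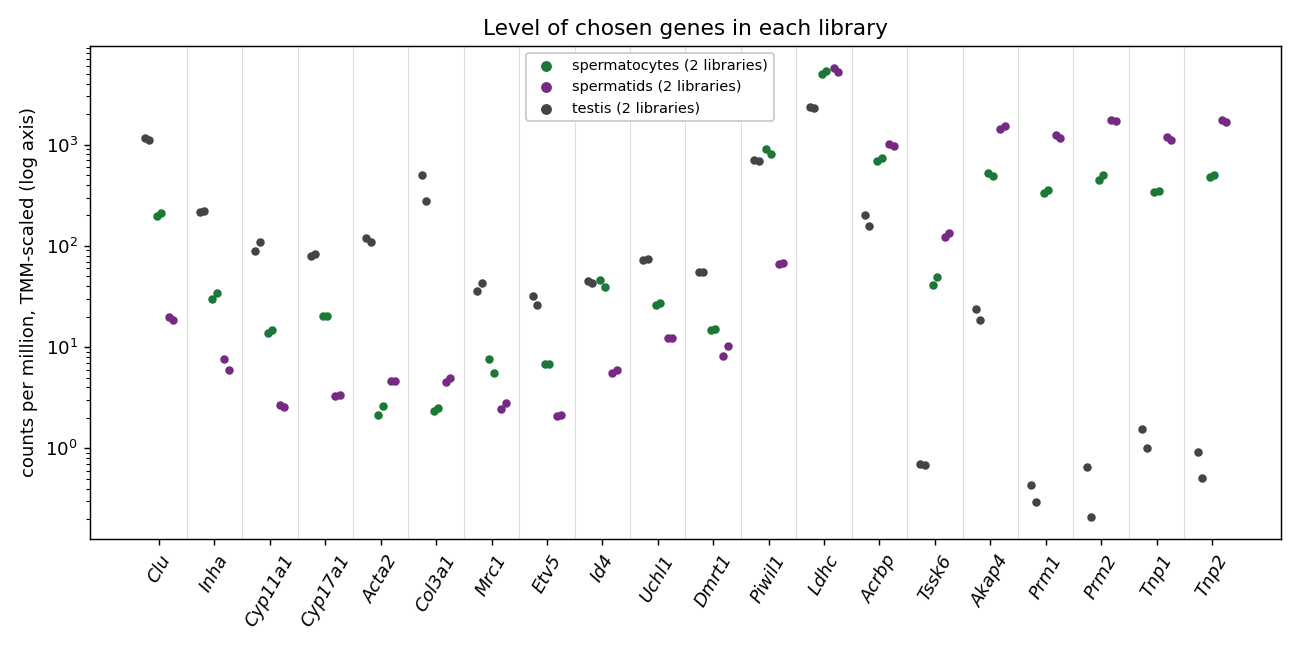
Level of 20 genes in each of the 6 libraries, in TMM-scaled CPM on a log axis; each point is 1 library, coloured by group. The Sertoli gene Clu fell from 1167 and 1098 CPM in testis to about 20 in spermatids (19.8 and 18.7), whereas Prm1 lay below 1 CPM in both testes (0.433 and 0.296) and above 1000 in both spermatid libraries (1238 and 1173).

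Genes of the acrosome and of early round spermatids moved in the same direction. All 25 were called higher by log2 1 or more in both comparisons, 15 of them by log2 3 or more in spermatocytes and 16 in spermatids. Of all genes 23.5% and 28.9% were called higher by log2 1 or more, and 7.22% and 11.6% by log2 3 or more. The medians of the list were 3.49 and 4.82. Acrbp, which binds proacrosin, measured 199 and 158 CPM in testis, 694 and 739 in spermatocytes, and 1010.4 and 962 in spermatids, a difference of log2 2.002 and 2.46. Rfx2, a transcription factor of round spermatids, was higher by 1.57 and 1.90. Zpbp2, a zona pellucida binding protein, was higher by 1.40 and 1.601. Catsper2, of the sperm calcium channel, was higher by 1.35 and 1.66. Tssk6, a testis-specific kinase, had the widest gap of the list: 0.693 and 0.677 CPM in testis, 41.1 and 49.3 in spermatocytes, and 123 and 134 in spermatids. Its difference was log2 6.03 and 7.54. Sox30, a transcription factor of the same stages, stood at 42.0 and 33.2 CPM in testis, 153 and 156 in spermatocytes, and 318 and 269 in spermatids.

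Without testis 2 the late spermatid medians were log2 4.47 and 5.99, and those of the Sertoli list -2.76 and -5.23. The size of the spermatid medians depended on the testes used. Against the wild-type testes of the Sox30 set the late spermatid median was log2 3.43 in spermatocytes and 4.81 in spermatids, and that of early round spermatids 2.55 and 3.87. Those 2 libraries were deeper, with 40010106 and 34794405 gene counts. The ribosomal RNA gene Rn45s took 3.37% and 2.78% of their counts, and 3.96% and 3.97% in testes of the Nkapl set. In testis 1 and testis 2 it took 0.0689% and 0.0713%. The part of these library differences in the medians was not tested. With the sorted cells labelled Nkapl knockout in place of those labelled wild type, the late spermatid medians were 3.96 and 5.48.

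Among single genes outside the lists, the largest rises were of transcripts without a read in either testis. Prss52, a serine protease, had 0 counts in both testes and 16.3 and 17.4 CPM in spermatocytes and 58.5 and 54.5 in spermatids. With a floor of 3 counts over the 2 testes it was at least 263-fold higher in spermatocytes and at least 880-fold higher in spermatids. Spata31d1c was at least 278-fold and 753-fold higher by the same floor. Tmem239, Ttc24, Bpifa3 and Hmgb1-rs17 also had 0 counts in testis and 8.06 to 10.9 CPM in spermatocytes and 25.9 to 33.8 in spermatids. Fam71a had a single read in testis, and 39.3 and 40.4 CPM in spermatocytes and 103 and 102 in spermatids.

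Sertoli cell transcripts fell in both sorted fractions. All 24 listed genes were called lower by log2 1 or more in both comparisons, where 31.2% and 40.2% of all genes were. By log2 3 or more 8 of them were lower in spermatocytes and 22 in spermatids, where 7.33% and 17% of all genes were. The median was log2 -2.83 in spermatocytes and -5.32 in spermatids. Summed over the list, the level was 3283 and 3343 CPM in testis, 469 and 496 in spermatocytes, and 80.6 and 78.4 in spermatids. Clu, which encodes the secreted chaperone clusterin, measured 1167 and 1098 CPM in testis, 197 and 210 in spermatocytes, and 19.8 and 18.7 in spermatids. The groups were apart in that order, with differences of log2 -2.48 and -5.88. Ctsl, encoding the protease cathepsin L, differed by -2.88 and -5.50, and Aard by -3.61 and -5.23. Inha and Inhbb encode inhibin subunits. Inha differed from testis by log2 -2.77 and -5.004, and Inhbb by -3.34 and -7.34. The X-linked homeobox gene Rhox5 measured 26.2 and 28.6 CPM in testis, 1.59 and 2.30 in spermatocytes, and 0.648 and 0.707 in spermatids. Sox9, which specifies the Sertoli fate, measured 27.4 and 28.4 CPM in testis, 4.44 and 3.85 in spermatocytes, and 0.518 and 0.321 in spermatids. With Nkapl-set testes as the reference the spermatid median of the list was -4.07, and against those of the Sox30 set -4.20. With spermatocytes labelled Nkapl knockout the spermatocyte median was -3.51.

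Leydig cell transcripts were lower as well. Of 15 listed genes 14 were tested. Of these, 13 (92.9%) were called lower by log2 1 or more in each comparison, where 31.2% and 40.2% of all genes were. The medians were log2 -2.90 and -5.16. Cyp11a1, the enzyme that opens steroid synthesis, measured 87.9 and 109 CPM in testis, 13.8 and 14.7 in spermatocytes, and 2.66 and 2.57 in spermatids. Its difference was log2 -2.79 and -5.23. Cyp17a1, which makes androgen precursors, differed by -2.01 and -4.61, and Hsd3b6, a later enzyme of the pathway, by -3.83 and -5.97. Cyp17a1 turned to log2 0.28 in spermatocytes against the testes of the Nkapl set. Lhcgr, the receptor for luteinizing hormone, had 0 counts in both spermatid libraries and was at least 46.9-fold lower there than in testis. At that bound the median of the list was unchanged. The exception was Scarb1, a receptor for high-density lipoprotein, with 69.1 and 75.2 CPM in testis, 48.6 and 53.3 in spermatocytes, and 79.1 and 79.6 in spermatids (log2 0.14, adjusted p = 0.114). In spermatids labelled Nkapl knockout the Leydig median was -3.51.

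The 18 genes of interstitial stroma and matrix were all called lower by log2 1 or more in both comparisons. By log2 3 or more 16 were lower in spermatocytes and 14 in spermatids. Of all genes 31.2% and 40.2% were called lower by log2 1 or more, and 7.33% and 17% by log2 3 or more. The medians were log2 -4.61 and -4.52. Gene by gene, the median difference of spermatids from spermatocytes was log2 0.99, with quartiles of 0.13 and 1.20. Col3a1, a fibrillar collagen, measured 499 and 276 CPM in testis, 2.36 and 2.51 in spermatocytes, and 4.47 and 4.95 in spermatids. Sparc, a matrix protein, measured 848 and 750 CPM in testis, 75.2 and 72.5 in spermatocytes, and 13.7 and 14.47 in spermatids. The testes themselves differed in collagen: Col1a1 stood at 287 CPM in testis 1 and 105 in testis 2, and Col1a2 at 479 and 225. Without testis 1 the spermatocyte difference of Col1a1 moved from log2 -6.42 to -5.52, and that of Col1a2 from -7.55 to -6.91. In spermatids labelled Nkapl knockout the median of the list was -3.68.

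Of the 14 genes of peritubular myoid cells, 11 (78.6%) were called lower by log2 1 or more in both comparisons. Of all genes 31.2% and 40.2% were. The medians were log2 -4.02 and -3.93. Acta2, smooth muscle actin, measured 118 and 109 CPM in testis, 2.14 and 2.62 in spermatocytes, and 4.60 and 4.63 in spermatids. Lmod1, which nucleates actin filaments, measured 7.88 and 8.08 CPM in testis and had 1 read over both spermatocyte libraries and 2 over both spermatid libraries. Actg2, an actin of visceral smooth muscle, was called higher and measured 8.79 and 6.69 CPM in testis, 110 and 110 in spermatocytes, and 298 and 291 in spermatids. The summed level of the list, of which Actg2 made up much in sorted cells, fell less than the median. It was 531 and 497 CPM in testis, 223 and 210 in spermatocytes, and 415 and 411 in spermatids.

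Endothelial and macrophage genes were less uniform. Of 14 endothelial genes, 11 (78.6%) were called lower by log2 1 or more in spermatocytes and 8 (57.1%) in spermatids. Of all genes 31.2% and 40.2% were. The medians were log2 -2.55 and -2.41. The summed level did not follow the median in spermatids. It was 53.3 and 51.5 CPM in testis, 44.4 and 40.1 in spermatocytes, and 60.5 and 61.8 in spermatids. Emcn, a surface marker of endothelium, measured 0.606 and 1.27 CPM in testis and had 0 counts in spermatocytes. With Emcn at the floor of 3 counts the median was unchanged. Sox17, Flt1 and Vwf were called higher in both comparisons. Sox17, a transcription factor, was higher by log2 1.87 and 2.01, and Flt1, a receptor for vascular growth factor, by 1.05 and 2.08, though Flt1 was at -0.15 in spermatocytes labelled Nkapl knockout. Vwf, of blood clotting, was higher by 0.43 in spermatocytes, a call that was lost without testis 1 (0.33) or the first spermatocyte library (0.27) and a direction that turned with no scaling factor (-0.030), and by 1.64 in spermatids. Of 17 macrophage genes, 13 (76.5%) were called lower by log2 1 or more in spermatocytes and 11 (64.7%) in spermatids, with medians of -3.16 and -2.02. The mannose receptor Mrc1 differed by -2.59 and -3.89. C1qa, of complement, measured 14.1 and 13.8 CPM in testis, 0.219 and 0.267 in spermatocytes, and 1.36 and 1.22 in spermatids. The Fc receptor gene Fcgr3 and the antigen-presenting H2-Ab1 lay near their testis level, Fcgr3 at 23.9 and 19.6 CPM in testis, 28.6 and 29.3 in spermatocytes, and 19.96 and 20.4 in spermatids. In spermatids labelled Nkapl knockout the medians of the endothelial and macrophage lists were -1.32 and -0.71.

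**Figure D2:**
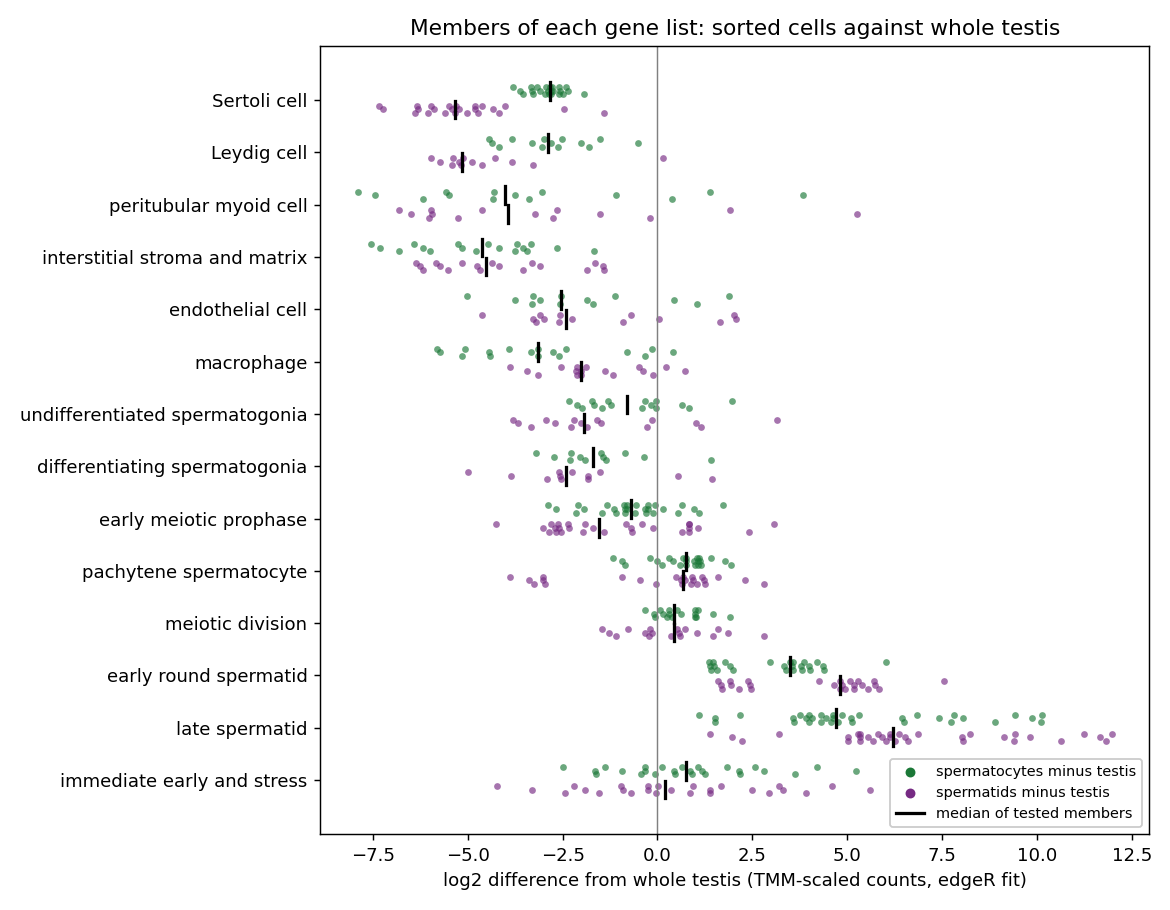
Log2 difference from whole testis for each tested member of 14 gene lists (members without a count in one of the groups are not drawn); green points are spermatocytes, purple points spermatids, and black bars the median of tested members. Sertoli and Leydig medians lay further left in spermatids (-5.32 and -5.16) than in spermatocytes (-2.83 and -2.90), and the late spermatid medians at 4.69 and 6.19.

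The largest single falls included several genes outside the lists. Rgs5, a regulator of G protein signalling known from pericytes, measured 7.49 and 6.43 CPM in testis and had 0 counts in all 4 sorted libraries. It was at least 85.7-fold lower in spermatocytes and at least 71.8-fold lower in spermatids. Sct, the hormone secretin, was also at 0 in all 4, at least 63.0-fold and 52.8-fold lower. Casq2, a calcium store protein of muscle, measured 11.4 and 13.9 CPM in testis and had 0 counts in spermatocytes and 2 in spermatids. Eln, which encodes elastin, measured 171 and 115 CPM in testis, 0.274 and 0.321 in spermatocytes, and 0.583 and 0.514 in spermatids, a difference of log2 -8.87 and -8.01. Tmem204 and Tcf23 had 0 counts in spermatocytes and were at least 76.2-fold and 74.1-fold lower there. Fam107a and Zfp697 had 0 counts in spermatids and were at least 66.8-fold and 49.5-fold lower there.

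The size of some falls depended on testis 1. Spink8 measured 11.5 CPM in testis 1 and 1.06 in testis 2, with 0 counts in all sorted libraries, and Angptl7 measured 22.9 and 6.18. Both were still called lower without testis 1. Testis 1 also carried transcripts of epididymal epithelium, the duct attached to the testis. Of 20 such genes 1 passed the filter on low counts. Their summed level was 49.2 CPM in testis 1, 5.93 in testis 2, 8.83 and 10.8 in spermatocytes, and 9.27 and 8.55 in spermatids. Crisp1, a secreted protein of the epididymis, measured 17.98 CPM in testis 1 and 0.0423 in testis 2. Adam7 measured 4.20 CPM in testis 1 and had 0 counts in the other 5 libraries. The part of this tissue in the falls of Spink8 and Angptl7 was not tested. The 4 globin genes on the red blood cell list had 0 counts in all 6 libraries. Whether reads of these genes could be counted at all was not tested, so the zeros give no measure of blood. Alas2, the first enzyme of haem synthesis in red cells, measured 10.7 and 6.69 CPM in testis, 2.58 and 3.53 in spermatocytes, and 1.04 and 0.964 in spermatids.

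**Figure D3:**
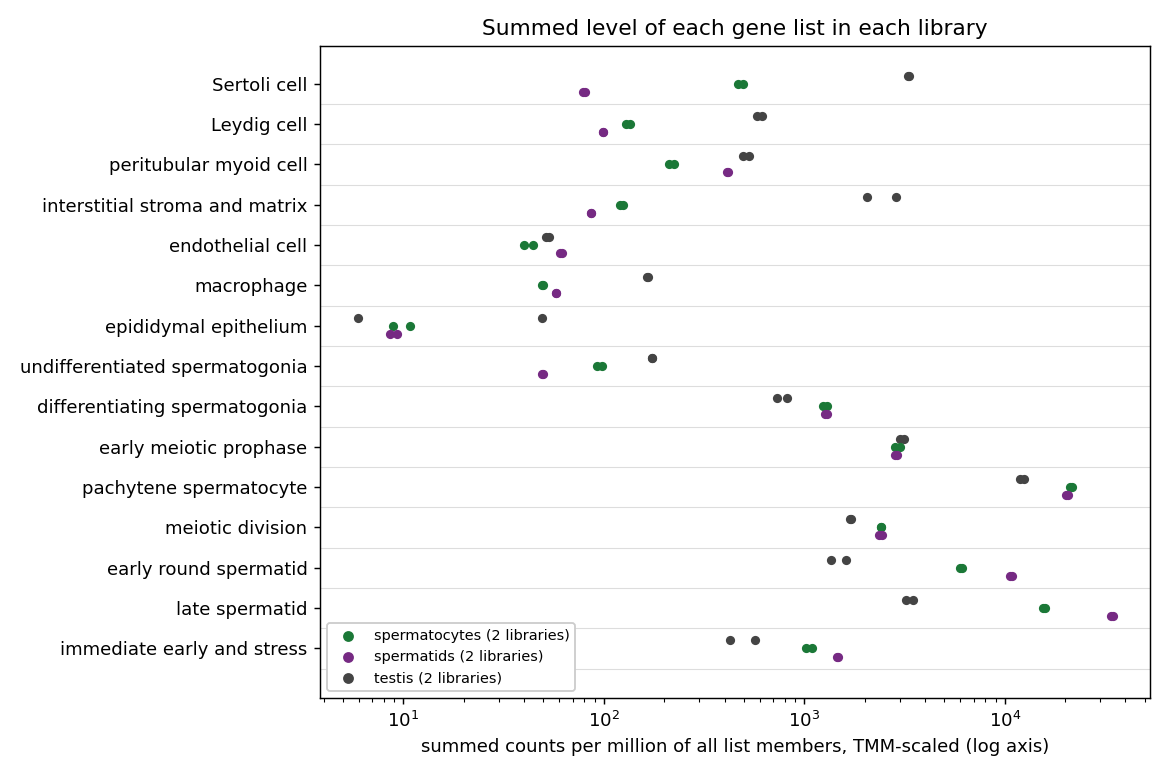
Summed TMM-scaled CPM of all members of each list in each library, on a log axis. Each point is 1 library, and the red blood cell list is not drawn. The 2 testis libraries lie together for most lists. They lie apart for epididymal epithelium (49.2 and 5.93 CPM), stroma and matrix (2875 and 2054 CPM), and immediate early and stress genes (571 and 427 CPM).

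Spermatogonial transcripts were lower in sorted cells at the median. Of 18 genes of undifferentiated spermatogonia 16 were tested. Of these, 8 were called lower in spermatocytes, all by log2 1 or more, 3 higher and 5 not called. In spermatids 11 were called lower, all by log2 1 or more, 3 higher and 2 not called. The genes called lower were 50% and 68.8% of those tested on the list. Of all genes 44.7% and 50.2% were called lower, and 40.6% and 40.2% higher. By log2 1 or more 31.2% and 40.2% of all genes were called lower, and the medians were log2 -0.80 and -1.94. Etv5, a transcription factor of stem cell maintenance, measured 32.2 and 26.2 CPM in testis, 6.74 and 6.74 in spermatocytes, and 2.07 and 2.12 in spermatids. Its difference was log2 -2.11 and -3.80. Lin28a, which blocks let-7 maturation, differed by -1.46 and -2.01, and Taf4b, a subunit of a general transcription factor, by -1.73 and -1.58. Id4, a marker of spermatogonial stem cells, measured 45.2 and 43.1 CPM in testis, 46.0 and 39.5 in spermatocytes, and 5.57 and 5.91 in spermatids. In spermatocytes its range overlapped that of testis (log2 -0.05, adjusted p = 0.617), and in spermatids it was lower by 2.94 on the log2 scale (adjusted p = 5.44e-15). Gfra1, Bcl6b and Lhx1 were called higher in both comparisons. Gfra1, the receptor for the niche factor GDNF, measured 3.51 and 3.68 CPM in testis, 5.43 and 5.94 in spermatocytes, and 8.62 and 7.39 in spermatids. Lhx1 was low throughout, at 0.0866 and 0.127 CPM in testis and at most 1.04 in spermatids.

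Of the 12 genes of differentiating spermatogonia, 9 (75%) were called lower by log2 1 or more in spermatocytes and 10 (83.3%) in spermatids. Of all genes 31.2% and 40.2% were. The medians were log2 -1.70 and -2.40. The receptor Kit measured 30.0 and 33.6 CPM in testis, 12.9 and 11.8 in spermatocytes, and 11.2 and 11.2 in spermatids. Stra8, which drives entry into meiosis, measured 29.5 and 33.3 CPM in testis, 7.40 and 7.81 in spermatocytes, and 2.14 and 2.19 in spermatids. Both lay below testis in all 4 sorted libraries. Ccnd2, a cyclin of dividing spermatogonia, differed by -3.19 and -4.998. The transcription factor gene Dmrt1 differed by -1.90 and -2.58, the DNA methyltransferase gene Dnmt3a by -2.72 and -2.90, and Uchl1, a deubiquitinase of spermatogonia, by -1.44 and -2.56. Dmrtb1, which acts at the turn from mitosis to meiosis, was higher: 497 and 390 CPM in testis, 1145 and 1199.7 in spermatocytes, and 1195 and 1221 in spermatids, a difference of 1.40 and 1.45. Dmrtb1 made up much of the summed level of the list, which was 824 and 735 CPM in testis, 1246 and 1301 in spermatocytes, and 1271 and 1299 in spermatids, so the sum was higher in sorted cells and the median lower. Against the testes of the Sox30 set the spermatocyte median was -1.12.

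Genes of meiosis were mixed in direction. Of 28 early prophase genes 19 were called lower in each comparison, where 44.7% and 50.2% of all genes were, and 5 and 8 higher. Falls of log2 1 or more made up 32.1% and 53.6% of the list, against 31.2% and 40.2% of all genes. Rises of that size made up 7.14% and 10.7%, against 23.5% and 28.9%. The medians were log2 -0.69 and -1.54. Dmc1, the meiotic recombinase, measured 29.0 and 33.9 CPM in testis, 4.55 and 3.96 in spermatocytes, and 4.67 and 4.37 in spermatids. Spata22, of meiotic recombination, differed by -0.79 in spermatocytes and -4.25 in spermatids. The cohesin subunits Rec8 and Stag3 were higher, Rec8 by 1.73 and 3.06 and Stag3 by 0.64 and 0.84, as was Syce1 of the synaptonemal complex, by 0.98 and 1.08.

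Of 24 pachytene genes 18 were called higher and 4 lower in spermatocytes, and 15 higher and 8 lower in spermatids. Of all genes 40.6% and 40.2% were called higher, and 44.7% and 50.2% lower. Rises of log2 1 or more made up 37.5% and 29.2% of the list, against 23.5% and 28.9% of all genes. Falls of that size made up 4.17% and 25%, against 31.2% and 40.2%. The medians were log2 0.75 and 0.67. The spermatid median was -0.05 with no scaling factor. Ldhc, the germ cell lactate dehydrogenase, measured 2338 and 2284 CPM in testis, 4963 and 5336 in spermatocytes, and 5668 and 5178 in spermatids. Hspa2, a chaperone of the same stage, differed by 0.75 and 0.74, and Pgk2, the germ cell phosphoglycerate kinase, by 1.95 and 2.82. Mov10l1 and Tdrd5 act, like Piwil1, in the piRNA pathway. Mov10l1 differed by -1.16 in spermatocytes and -3.01 in spermatids. Tdrd5 measured 221 and 225 CPM in testis, 227 and 218 in spermatocytes, and 13.998 and 16.009 in spermatids.

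Of 18 genes of the meiotic divisions 13 were called higher and 1 lower in spermatocytes, and 10 higher and 6 lower in spermatids. Of all genes 40.6% and 40.2% were called higher, and 44.7% and 50.2% lower. Rises of log2 1 or more made up 22.2% and 27.8% of the list, close to the 23.5% and 28.9% of all genes. Falls of that size made up 0% and 16.7%, against 31.2% and 40.2%. The medians were log2 0.45 and 0.44. With no scaling factor these were -0.01 and -0.28. The kinase genes Aurka and Plk1 were higher, Aurka by 1.07 and 1.03 and Plk1 by 1.46 and 1.87. Cdk1, the kinase that starts the divisions, measured 60.2 and 57.9 CPM in testis, 53.6 and 58.2 in spermatocytes, and 20.7 and 22.2 in spermatids. Only in spermatids was it below both testes.

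At the median, genes on the X chromosome lay lower in sorted cells than the table as a whole. In meiosis the X and Y are silenced, and in spermatids much of the X stays low while some genes of multicopy families are switched on. X-linked genes took 1.29% and 1.41% of counts in testis, 0.479% and 0.465% in spermatocytes, and 0.800% and 0.818% in spermatids. By this share, which is of counts before scaling, the 2 spermatocyte libraries were lowest and the 2 testes highest. In TMM-scaled CPM the X-linked genes summed to 9931 and 10606 in testis and to 5049 and 4864 in spermatocytes. The sums in spermatids, 10035 and 10201, overlapped those of testis. Of 1073 X-linked genes 719 were tested. Of these, 462 (64.3%) were called lower by log2 1 or more in spermatocytes and 417 (58%) in spermatids, where 31.2% and 40.2% of all genes were. As higher by log2 1 or more 163 (22.7%) and 215 (29.9%) were called, close to the 23.5% and 28.9% of all genes. Large rises in spermatids were more frequent than in the table as a whole. By log2 3 or more 62 of the 719 were called higher in spermatocytes and 133 in spermatids, where 7.22% and 11.6% of all genes were. As lower by that size 154 and 260 were called, where 7.33% and 17% of all genes were. The median was log2 -1.92 in spermatocytes and -1.80 in spermatids, against -0.08 and -0.33 for all tested genes. The quartiles were -2.88 and 0.59 in spermatocytes and -3.79 and 1.79 in spermatids. Akap4 is itself X-linked and was higher by 4.58 and 6.12, while Rhox5, named above, was lower by 3.81 and 5.32 on the log2 scale. Testes of the other 2 wild-type sets had an X-linked share of 1.28% to 1.52%. Y-linked genes took 0.0160% and 0.0192% of counts in testis, 0.0106% and 0.0106% in spermatocytes, and 0.0198% and 0.0203% in spermatids.

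**Figure D4:**
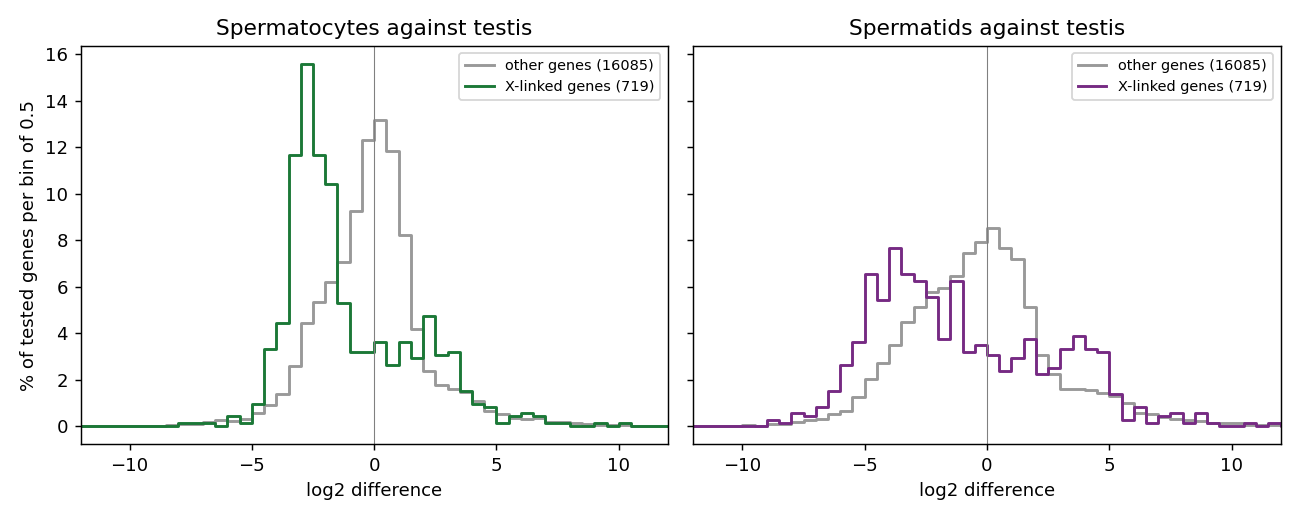
Share of tested genes in bins of log2 difference from testis, for 719 X-linked genes (coloured) and 16085 other genes (grey), in spermatocytes (left) and spermatids (right). The X-linked medians lay at -1.92 and -1.80. To the right of log2 1 lay 22.7% and 29.9% of X-linked genes as called rises, near the 23.5% and 28.9% of all genes. To the right of log2 3 lay 62 and 133 of the 719 as called rises, where 7.22% and 11.6% of all genes did.

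Genes of the immediate early and stress responses, which can change while tissue is being handled, differed without a common direction. Of 26 listed, 15 were called higher and 5 lower in spermatocytes, and 13 higher and 10 lower in spermatids. Of all genes 40.6% and 40.2% were called higher, and 44.7% and 50.2% lower. Rises of log2 1 or more made up 42.3% and 38.5% of the list, against 23.5% and 28.9% of all genes. Falls of that size made up 15.4% and 23.1%, against 31.2% and 40.2%. The medians were log2 0.75 and 0.19, and the latter was -0.52 with no scaling factor. Fosb, Egr3, Klf4 and Dnajb1, named next, were all higher, while the list reached down to log2 -2.50 in spermatocytes and -4.23 in spermatids. Fosb, a subunit of the AP-1 factor, measured 0.736 and 0.339 CPM in testis, 19.95 and 20.5 in spermatocytes, and 13.2 and 13.1 in spermatids. Its difference was 5.22 and 4.60, or 5.87 and 5.24 without testis 1. Egr3 was higher by 4.21 and 5.59, and Klf4 by 2.57 and 3.91. The chaperone gene Dnajb1 was higher by 1.17 and 1.40. Nr4a1 measured 47.4 CPM in testis 1 and 4.66 in testis 2, against 33.7 and 36.1 in spermatocytes. Its spermatocyte difference was 0.43 (adjusted p = 0.385), 2.90 without testis 1 and -0.43 without testis 2. In spermatids it was 1.68, moving to 4.14 and 0.82. The part of tissue handling in these differences was not tested, and preparation and group cannot be told apart.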

How the data were processed

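The deposited files hold whole-number read counts per gene symbol, 1 column per library, for 24682 symbols. Per the submitters' processing notes the tools were HISAT2 2.1.0, HTSeq and DESeq2 with build mm10; which tool did which step, the annotation and any use of strand in counting were not given in the sources used here. Summary lines of the counter, present in the sorted files at 18.8% to 20.0% of their totals for the libraries used, were dropped. In 15 of 18 testis files the column heading names a sample that differs from GEO's record for that file, and 4 distinct columns have at least 1 file recorded under another group. Groups here follow the headings; 3 pairs of files are identical and were counted once.

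Genes were filtered with edgeR's filterByExpr, scaled by TMM and tested with the quasi-likelihood test (edgeR 4.0.16, R 4.3.3) on group means over all 6 libraries, with 3 residual degrees of freedom. Code was tested on simulated data. DESeq2 1.42.0, other scalings, filters, testes and sorted cells, thinning, the replicate block and leaving out each library were alternatives. Intervals are exact and, like the floor of 3 counts, cover counting error only. Lists and members were chosen with earlier results of these data known. Named genes were, per list, the 4 with the most reads and the largest called rise and fall, plus the 6 largest rises and falls in each comparison. Of these the text names a part, and 1 item is not reported here. Prm1, Tnp1, Tnp2, Akap4, Piwil1, Sox9, Kit, Stra8, Gfra1 and Bcl6b were added after their values were seen. The size limits of log2 1 and 3 were also set then. Coordinates and promoters are from RefSeq on GRCm38.p6, the assembly behind mm10; where a gene had several starts the first listed was used.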

Additional observations from a re-analysis of the deposited data

Results flagged for a closer look

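Piwil1 differed from testis in opposite directions in the 2 sorted fractions, higher by log2 0.29 in spermatocytes and lower by 3.37 on the log2 scale in spermatids. The small rise in spermatocytes depended on scaling and turned to -0.17 with no scaling factor. The direct test of spermatids minus spermatocytes gave log2 -3.67, with both spermatid libraries (66.5 and 67.8 CPM) below both spermatocyte libraries (899 and 810 CPM). Among the genes named in the text it alone was called in opposite directions.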

How the results depend on the processing

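Counts of called genes stayed within 1.5 times of the reported ones under all 18 alternatives in all 3 comparisons. For the mean of the sorted fractions, with 6824 genes higher and 8350 lower, the lowest counts came with all sorted libraries as 1 group (5436 and 5866) and, for rises, with no scaling factor (4898). With a replicate block 6765 and 7466 genes were called in spermatocytes and 6714 and 8404 in spermatids, and the numbers did not pair the libraries (correlations of deviations -0.10 to 0.01). With no scaling factor the median turned in pachytene genes in spermatids (-0.048), in meiotic division genes in both fractions (-0.012 and -0.28) and in stress genes in spermatids (-0.52). In spermatocytes so did Piwil1 (-0.17), Fcgr3 (-0.048), Vwf (-0.030) and Nkapl (-0.062), and in spermatids Nkapl (-0.37), Scarb1 (-0.58) and H2-Ab1 (-0.48). With testes of the Nkapl set, Cdk1 (0.49), Cyp17a1 (0.28), H2-Ab1 (0.53) and Vwf (-0.65) turned in spermatocytes, and with those of the Sox30 set Id4 (0.53), H2-Ab1 (0.45) and Vwf (-0.66). With cells labelled Nkapl knockout, Id4 (0.60), Tdrd5 (0.65), Flt1 (-0.15) and Vwf (-0.67) turned in spermatocytes, and Nkapl (-1.60), Scarb1 (-2.12) and H2-Ab1 (-0.79) in spermatids. Without testis 2, Nr4a1 turned in spermatocytes (-0.43), and without testis 1 it was called there (2.90). The cause of these turns was not tested. With 2 libraries a group, small differences are not secure, and at 0 to 3 counts only bounds or wide intervals can be given.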
